A study of Mus musculus with 18 samples.

Results

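The cornified envelope is the layer of crosslinked protein that replaces the plasma membrane of dying keratinocytes at the skin surface. Its genes were read here across skin and pituitary of wild-type and knockout mice. The members were the probe sets whose gene symbol begins with Lce or Sprr and a digit, together with the S100-fused genes Flg2, Hrnr, Rptn, Tchh, Tchhl1 and Crnn, the precursors Lor and Ivl, the transglutaminases Tgm1, Tgm3 and Tgm5, and Casp14, Cdsn and Asprv1. This gave 48 probe sets of the 19572 with a gene symbol, which stand for 19505 genes: 21 for late cornified envelope (Lce) genes, 13 for small proline-rich (Sprr) genes and 14 for the other genes, with 1 probe set per gene. Flg, which the choice of members also named, was not analysed here. The rule used gene symbols and not intensities, but it was chosen with earlier results of these data known.

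Arrays were made from 6 groups with 3 arrays each. In skin, numbers 1 to 3 are wild type, numbers 4 to 6 carry a knockout of the long noncoding RNA MIR205HG (lncKO), and numbers 7 to 9 carry a knockout of the microRNA miR-205 (miR-205 KO). Numbers 10 to 12, 13 to 15 and 16 to 18 are the same genotypes in pituitary. All mice are labelled as female C57BL/6 aged 5 to 6 weeks, with no treatment. The labels give neither the deleted segment nor a tissue-limited Cre for either knockout, and they do not say whether the samples of a group were separate mice, so the p-values rest on a spread between samples that could be technical. The Clariom S array of Affymetrix reads total RNA, converted to biotin-labelled cDNA, at 1 intensity per probe set.

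In the upper epidermis, keratinocytes first lay down involucrin (Ivl) beneath the membrane and later add loricrin (Lor), SPRR and LCE proteins, which transglutaminases join through isopeptide bonds. S100-fused proteins such as filaggrin-2 (Flg2) and hornerin (Hrnr) fill the cornifying cell, trichohyalin (Tchh) stiffens the inner root sheath of the hair, and corneodesmosin (Cdsn) holds cornified cells together until they are shed. Most of these genes lie side by side in the epidermal differentiation complex. The miR-205 microRNA is abundant in epithelia such as epidermis, and MIR205HG is the transcript of its host gene.

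Several features of the arrays touch the results. Skin arrays correlated with each other over all named probe sets at r = 0.970 to 0.993 and pituitary arrays at 0.987 to 0.993. Array medians ran from 82 to 96 on the intensity scale, and 22.8% to 25.3% of probe sets per array read 16 or less. The list of 7 basal keratinocyte markers had a mean log2 intensity of 12.57 to 13.06 on the skin arrays and 6.19 to 6.48 on the pituitary arrays. The extraction text names ear for all samples, those of pituitary included. The Y-linked genes Uty and Eif2s3y read 6 to 13 and 5 to 11 in skin but 1869 to 2339 and 559 to 1640 in pituitary, which goes against the female label of the pituitary samples, so sex and tissue cannot be told apart in any comparison between tissues. No probe set for MIR205HG or miR-205 is named, so neither knockout was checked on its own transcript. Wild-type skin arrays 1 and 2 stand apart in hair genes, and wild type 1 also in a set of members and in Gh, as described with the results below.

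The microRNA that the miR-205 KO lacks is shown for orientation. Capitals mark the seed, bases 2 to 8 of the mature strand, and the position is that of RefSeq on GRCm38.p6.
mmu-miR-205-5p, chr1:193507503-193507524, minus strand: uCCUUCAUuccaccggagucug

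Promoter windows are shown for Lce1 and Lce3 genes that passed the threshold in skin, because genes that lie close together moved in opposite directions there. Each is the 100 bases before the RefSeq gene start on GRCm38.p6, read along the gene, with the letters ATAAAA in capitals. Lce1f, which rose in both knockouts, had no matched window. Lce6a, which fell in both, is not shown, and its window did not hold ATAAAA on the gene's own strand. The first 4 genes shown read higher in knockout skin, Lce1d and Lce1h past the threshold in miR-205 KO only.
Lce1b, chr3:92656927-92657026, minus strand: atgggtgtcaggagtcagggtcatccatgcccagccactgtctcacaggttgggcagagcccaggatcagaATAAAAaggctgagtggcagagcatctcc
Lce1d, chr3:92687211-92687310, minus strand: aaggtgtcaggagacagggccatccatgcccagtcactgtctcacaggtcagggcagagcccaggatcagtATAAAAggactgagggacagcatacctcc
Lce1h, chr3:92765066-92765165, minus strand: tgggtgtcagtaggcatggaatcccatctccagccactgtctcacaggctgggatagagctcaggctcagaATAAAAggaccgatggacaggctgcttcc
Lce1l, chr3:92851287-92851386, minus strand: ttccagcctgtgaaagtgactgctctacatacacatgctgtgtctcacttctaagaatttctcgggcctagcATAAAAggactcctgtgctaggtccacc

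These 5 genes read lower in both knockouts.
Lce1e, chr3:92709075-92709174, minus strand: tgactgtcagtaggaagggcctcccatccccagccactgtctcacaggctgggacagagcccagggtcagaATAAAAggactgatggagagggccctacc
Lce1j, chr3:92790515-92790614, minus strand: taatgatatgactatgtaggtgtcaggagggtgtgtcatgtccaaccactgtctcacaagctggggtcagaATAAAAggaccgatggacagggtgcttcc
Lce1k, chr3:92807892-92807991, minus strand: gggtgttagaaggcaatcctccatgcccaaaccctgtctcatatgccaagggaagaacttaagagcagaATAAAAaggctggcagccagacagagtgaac
Lce3c, chr3:92944386-92944485, plus strand: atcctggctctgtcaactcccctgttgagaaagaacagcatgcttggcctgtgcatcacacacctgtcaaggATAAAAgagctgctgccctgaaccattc
Lce3d, chr3:92957290-92957389, plus strand: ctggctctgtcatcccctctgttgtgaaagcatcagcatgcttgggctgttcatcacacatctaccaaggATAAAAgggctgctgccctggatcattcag

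RefSeq windows of 300 bases, from 250 before to 50 after the start, were matched for 45 of the 48 members (47 windows). The letters ATAAAA, searched on both strands, stood in 19 of 20 Lce windows (95%), against 18.5% of all windows in the table, and on the gene's own strand they began 31 to 28 bases before the start in 12 of 13 Lce1 genes and 44 to 28 before it in 6 of 6 Lce3 genes. In the Sprr2 genes the letters TATAAA, which overlap ATAAAA where an A follows, began 29 bases before the start in 7 of 7, and TATAAA was in 10 of 11 Sprr windows (90.9%) against 13.6% of all. The letters TGANTCA, the core that AP-1 factors bind, were in 9 of 11 Sprr windows (81.8%), in 0 of 20 Lce windows and in 7.81% of all. Over the 100 bases before the start, pairs of Lce1 genes were 49.2% to 90% identical (median 65.5%, 78 pairs), pairs of Lce3 genes 50% to 90.3% (median 67.6%, 15 pairs), and Lce1 with Lce3 45.7% to 56.9%. A match is a description of letters and not of a bound site.

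Skin and pituitary were compared first, in wild-type arrays. The test was limma's moderated linear model with Benjamini-Hochberg adjustment over the 19572 named probe sets, and an adjusted p under 0.05 counted as past the threshold. In wild-type skin 42 of 48 members read higher than in wild-type pituitary and 0 read lower, while 26.4% of all probe sets were higher and 25.7% lower. Over all 3 genotypes, 45 of 48 members read 64 or less on all 9 pituitary arrays, a level at which the log2 differences are partly set by background. Flg2 read 190927, 206454 and 208289 in wild-type skin and 11 to 21 in pituitary, a log2 difference of 13.81 ± 0.21 (SE, adjusted p = 7.78e-21). For Hrnr the log2 difference was 15.26 ± 0.22 (adjusted p = 5.30e-21). Not past the threshold were Lce3a, Lce3e, Sprr2g, Sprr2j-ps, Sprr2k and Sprr3. Sprr3, a small proline-rich gene of internal stratified epithelia, read 6 to 9 in skin and 7 to 10 in pituitary, at background in both. The lowest skin array lay above the highest pituitary array for 39 members, and 9 members overlapped. This separation was not counted over all probe sets, of which 52.1% passed between the wild-type tissues in either direction.

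**Figure D1:**
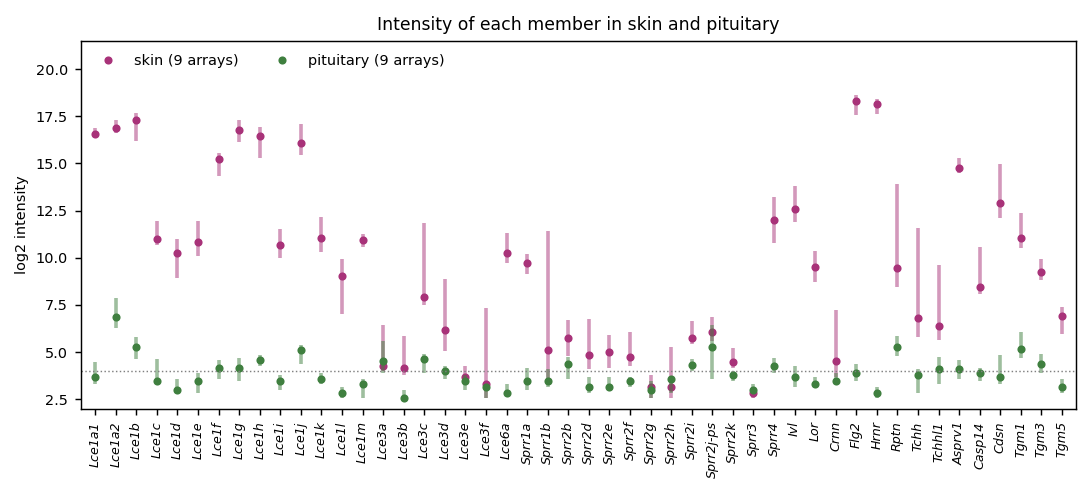
Log2 intensity of each of the 48 members (x axis, by family) in skin and pituitary; points are medians and bars run from the lowest to the highest of the 9 arrays of a tissue, and the dotted line is an intensity of 16. Skin bars lie clear of pituitary bars for 39 members, which was not counted over all probe sets. The high ends of the long skin bars of Sprr1b, Rptn, Tchh and Lce3f are wild-type arrays.

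In pituitary the members stayed low in all genotypes. Lce1a2 was the member with all 3 arrays of a group above 64: it read 109, 191 and 100 in wild type, 237, 118 and 183 in lncKO and 89, 77 and 118 in miR-205 KO, and the genotypes overlapped. Its log2 difference from wild type was 0.43 ± 0.30 in lncKO (adjusted p = 0.605) and -0.46 ± 0.30 in miR-205 KO (0.802). Tgm1 read 26 to 67 over the 9 pituitary arrays, with the highest value in wild type 11. By limma, 0 of 48 members passed in pituitary lncKO, where 0.700% of all probe sets did (0.342% higher and 0.358% lower). There 0 members and 2447 of all 19572 probe sets had an unadjusted p under 0.05. In pituitary miR-205 KO 0 members passed, where 0.107% of all probe sets did (0.0409% higher and 0.0664% lower). An unadjusted p under 0.05 was found there for 1462 of all 19572 probe sets and for 5 members (Lce1a1, Lce1b, Lce1g, Lce1k and Sprr2f). The lowest adjusted p of a member was 0.419 in lncKO and 0.435 in miR-205 KO. Most of these probe sets sit near background in pituitary, so a fall there could hardly be measured for them.

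Knockout skin differed from wild type in both directions within the envelope genes. In lncKO skin 17 of 48 members passed (35.4%), 4 higher and 13 lower, where 15.4% of all probe sets passed, 6.21% higher and 9.17% lower. The same number, 17, passed in miR-205 KO skin, 6 higher and 11 lower, against 16.8% of all, 6.79% higher and 10.0% lower. The members' median log2 fold change was -0.25 in lncKO and -0.32 in miR-205 KO, beside -0.07 in each case over all probe sets. Both knockouts were set against the same 3 wild-type arrays, so their calls are not independent of each other. With each array centred on its median the split was 6 higher and 11 lower in lncKO and 6 and 8 in miR-205 KO. Over all 19572 probe sets it was then 1499 higher and 1458 lower in lncKO, and 1677 and 1590 in miR-205 KO. With quantile normalization the members' split was 2 and 11, and 2 and 9. Over all probe sets that setting gave 1539 and 1514, and 1643 and 1629.

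Those counts rest on few arrays. Of all 19572 probe sets, 3009 passed in lncKO and 3293 in miR-205 KO in the main fit, and these numbers fell as well. The lncKO count of 17 members became 11 without wild type 2 (2087 of all) and 8 without lncKO 4 (1886). It was 8 without lncKO 5 (2182) and 9 without lncKO 6 (2040). The miR-205 KO count became 9 without wild type 1 (2775 of all), 11 without wild type 2 (2314) and 10 without miR-205 KO 7 (1668). It was 8 without miR-205 KO 8 (2127) and 10 without miR-205 KO 9 (2149). A fit without wild type 1 and 2 together was chosen after seeing the data. It leaves 1 wild-type array, which is assumed to vary like the other groups, so no count of members is given for it. Bulk skin also cannot tell apart fewer cells of a layer from less RNA per cell.

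**Figure D2:**
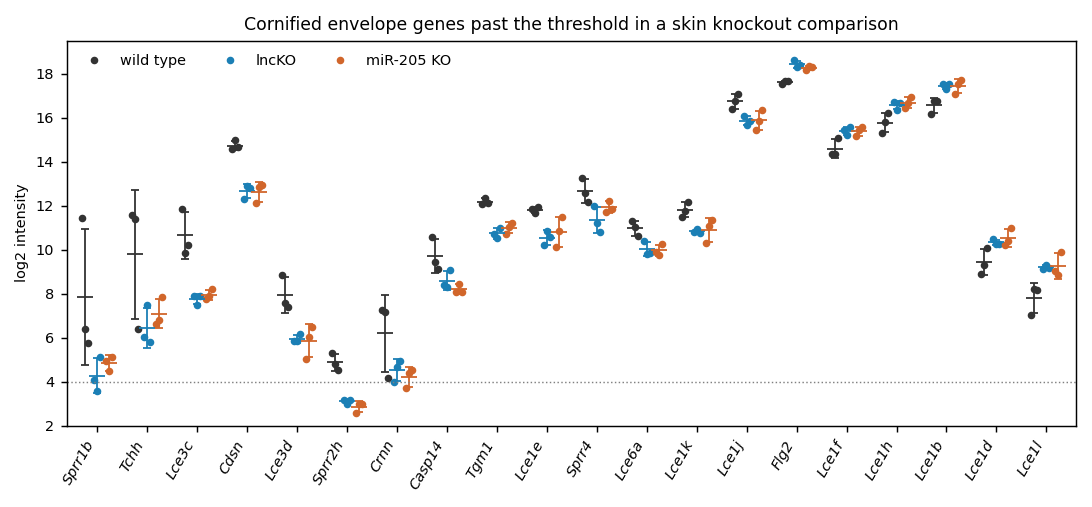
Log2 intensity on the 9 skin arrays of the 20 members past the threshold in at least one knockout comparison, ordered by mean fold change; points are arrays, long ticks are group means, bars are SD over 3 arrays, and the dotted line is an intensity of 16. Cdsn, Tgm1 and Lce3c are among the members whose knockout and wild-type arrays do not overlap, which was not counted over all probe sets. Sprr1b does not overlap either, but Sprr1b, Tchh and Crnn owe their wide wild-type bars to 1 or 2 bright arrays.

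Cdsn, the adhesion protein of corneodesmosomes, fell in both knockouts. It read 24463, 31949 and 25753 in wild type, 5047, 7547 and 7130 in lncKO, and 4407, 7371 and 7864 in miR-205 KO. All 6 knockout arrays lay below all 3 wild-type arrays. The fall was 2.07 ± 0.27 on the log2 scale in lncKO, 4.2-fold (SE; adjusted p = 5.23e-04), and Cdsn fell by 2.10 ± 0.27 in miR-205 KO, 4.29-fold (5.08e-04). The call stood under each of 13 other settings (another scaling, filter or variance model, or 1 array left out), with adjusted p from 1.24e-04 to 0.00854 in lncKO and from 1.00e-04 to 0.00856 in miR-205 KO.

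Of the transglutaminases, Tgm1, which crosslinks the envelope at the membrane, fell, while Tgm3 and Tgm5 did not pass. Tgm1 read 4324, 5276 and 4449 in wild type, 1676, 1460 and 2021 in lncKO and 1687, 2115 and 2381 in miR-205 KO, with no overlap between knockout and wild type. It fell by 1.45 ± 0.22 in lncKO (2.74-fold, adjusted p = 0.00152) and by 1.19 ± 0.22 in miR-205 KO (2.29-fold, 0.00439). Without wild type 1 and 2 together the miR-205 KO call was lost (log2 fold change -1.13, adjusted p = 0.0658). Tgm3, the transglutaminase of hair and late epidermis, read 597, 551 and 463 in wild type, 536, 646 and 963 in lncKO and 457, 700 and 749 in miR-205 KO, so the groups overlapped. Its log2 fold changes were 0.38 ± 0.27 (adjusted p = 0.368) and 0.22 ± 0.27 (0.62). Tgm5, an epidermal transglutaminase whose loss causes peeling skin in people, read 63, 144 and 109, then 119, 115 and 169, then 107, 119 and 139 in the same order of groups, again with overlap. The 95% interval of its change ran from -0.23 to 1.04 in lncKO and from -0.36 to 0.92 in miR-205 KO.

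Casp14, the caspase of cornifying keratinocytes that helps to break down filaggrin, was lower in both knockouts. Wild type read 1527, 694 and 563, lncKO 337, 312 and 539, and miR-205 KO 269, 349 and 272. The groups did not overlap, although lncKO 6 at 539 came close to wild type 3 at 563 and wild type 1 was the brightest. Casp14 fell by 1.13 ± 0.34 in lncKO (adjusted p = 0.0414), and the call failed under 8 of the 13 settings, including when wild type 1, wild type 2, lncKO 4 or lncKO 5 was left out (adjusted p up to 0.139). In miR-205 KO it fell by 1.52 ± 0.34 (0.0108), lost under 1 of the 13 settings, a floor at an intensity of 16 (0.0635), and also without wild type 1 and 2 together (0.148). Asprv1, the aspartic protease that processes profilaggrin, read 23374, 27608 and 26124 in wild type, 27594, 29920 and 27075 in lncKO and 33280, 39598 and 28474 in miR-205 KO. The lncKO and wild-type arrays of Asprv1 overlapped and the miR-205 KO arrays lay above wild type, but neither change passed (0.14 ± 0.21, adjusted p = 0.698, and 0.38 ± 0.21, 0.223).

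Members of the Lce1 group, whose proteins are added late to the envelope, moved both ways. Of 14 Lce1 genes, 3 rose and 3 fell in lncKO, and 5 rose and 3 fell in miR-205 KO, with group medians of 0.02 and 0.08 on the log2 scale. Several Lce1 transcripts resemble each other, and how far a probe set also reads a neighbour's transcript was not tested, so values of single Lce1 genes are uncertain to that extent.

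Lce1l had the steepest rise in the group. It read 130, 299 and 288 in wild type, 558, 636 and 574 in lncKO and 524, 454 and 964 in miR-205 KO, with every knockout array above every wild-type array. It rose by 1.40 ± 0.34 in lncKO (adjusted p = 0.0167) and by 1.45 ± 0.34 in miR-205 KO (0.0131), and lost the call with the floor in both, without lncKO 5 (up to 0.0824) and without miR-205 KO 9 (up to 0.0714). Lce1d read 481, 627 and 1073 in wild type, 1425, 1231 and 1209 in lncKO and 1203, 1351 and 2047 in miR-205 KO. Groups did not overlap for Lce1d either, but it passed in miR-205 KO alone (1.12 ± 0.30, adjusted p = 0.0228; lncKO 0.90 ± 0.30, 0.0584), and that call failed with the floor or when wild type 1, wild type 2 or miR-205 KO 9 was left out (up to 0.0911).

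Lce1b, Lce1f and Lce1h rose by less than a doubling. Lce1b read 74397 to 110770 in wild type against 160918 to 190970 in lncKO and 139841 to 212251 in miR-205 KO, a rise of 0.89 ± 0.24 (adjusted p = 0.0257) and 0.87 ± 0.24 (0.0265). Leaving out wild type 1 ended the Lce1b call in both, as did leaving out lncKO 4 or 6 in the former and miR-205 KO 8 or 9 in the latter, and quantile normalization (adjusted p up to 0.106 and 0.134). Lce1f rose by 0.81 ± 0.25 (0.043) and 0.80 ± 0.25 (0.044), calls that failed under 8 of the 13 settings in each knockout, and its wild type 3 value of 34634 lay close to the lowest knockout value of 36722. Lce1h passed in miR-205 KO alone (0.91 ± 0.26, adjusted p = 0.0295; lncKO 0.80 ± 0.26, 0.0524), a call that failed under 6 of the 13 settings, including when wild type 1 or 2 or miR-205 KO 8 or 9 was left out (up to 0.102).

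Lce1e, Lce1j and Lce1k fell, although they lie among the genes that rose. Lce1e read 3674, 3263 and 3880 in wild type, 1181, 1860 and 1537 in lncKO and 1105, 1816 and 2865 in miR-205 KO. No knockout array reached the lowest wild-type array, and miR-205 KO 9 came nearest to it. Lce1e fell by 1.26 ± 0.31 in lncKO (adjusted p = 0.0169, lost with the floor and without lncKO 4, up to 0.072) and by 1.01 ± 0.31 in miR-205 KO (0.0426, lost under 9 of the 13 settings, up to 0.174). Lce1j fell by 0.89 ± 0.27 in lncKO (0.0402) and by 0.87 ± 0.27 in miR-205 KO (0.0424); its wild-type arrays read 86166 to 139310, and miR-205 KO 9 at 82891 lay just below them. Lce1k fell by 0.99 ± 0.28 (0.0306) and by 0.92 ± 0.28 (0.0388). These 4 calls of Lce1j and Lce1k were lost under 6 to 8 of the 13 settings, with adjusted p up to 0.171, among them each fit without wild type 2 or without wild type 3. The other 6 Lce1 genes (Lce1a1, Lce1a2, Lce1c, Lce1g, Lce1i and Lce1m) passed in neither comparison, with log2 fold changes from -0.70 for Lce1c in lncKO (adjusted p = 0.0672) to 0.43 for Lce1g in miR-205 KO (0.249).

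The Lce3 genes, which are induced in wounded and psoriatic skin, showed falls in 2 of 6 members. Lce3c read 3704, 934 and 1181 in wild type, 241, 180 and 238 in lncKO and 217, 235 and 297 in miR-205 KO. Its lowest wild-type array stood well above its highest knockout array, and wild type 1 stood above the other 2. Lce3c fell by 2.88 ± 0.40 in lncKO (7.34-fold, adjusted p = 8.55e-04) and by 2.69 ± 0.40 in miR-205 KO (6.46-fold, 0.00127), and the calls stood under each of the 13 settings and without wild type 1 and 2 together (0.00327 and 0.00518).

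Lce3d read 463, 192 and 166 in wild type, 57, 57 and 71 in lncKO and 33, 66 and 90 in miR-205 KO, with no overlap and with wild type 1 again the brightest. It fell by 2.00 ± 0.40 (adjusted p = 0.0064) and by 2.08 ± 0.40 (0.00505). The lncKO call was lost with the floor (0.0551), and both were lost without wild type 1 and 2 together (0.0981 and 0.0785). Lce3a, Lce3b and Lce3f read 88, 58 and 160 on wild type 1 and 29 or less on the other 8 skin arrays, and none passed. Lce3e read 10 to 19 throughout skin. Lce6a, a lone late envelope gene at the edge of the Lce group, read 2511, 2072 and 1568 in wild type, 1335, 903 and 925 in lncKO and 959, 852 and 1222 in miR-205 KO. Knockout and wild-type arrays of Lce6a did not overlap, and it fell by 0.96 ± 0.26 (adjusted p = 0.024) and by 1.01 ± 0.26 (0.0178), calls that failed when wild type 1 or 2 or lncKO 5 or 6 was left out, with quantile normalization and with the floor in the former, and when wild type 1 or miR-205 KO 7 or 8 was left out in the latter (up to 0.0787).

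**Figure D3:**
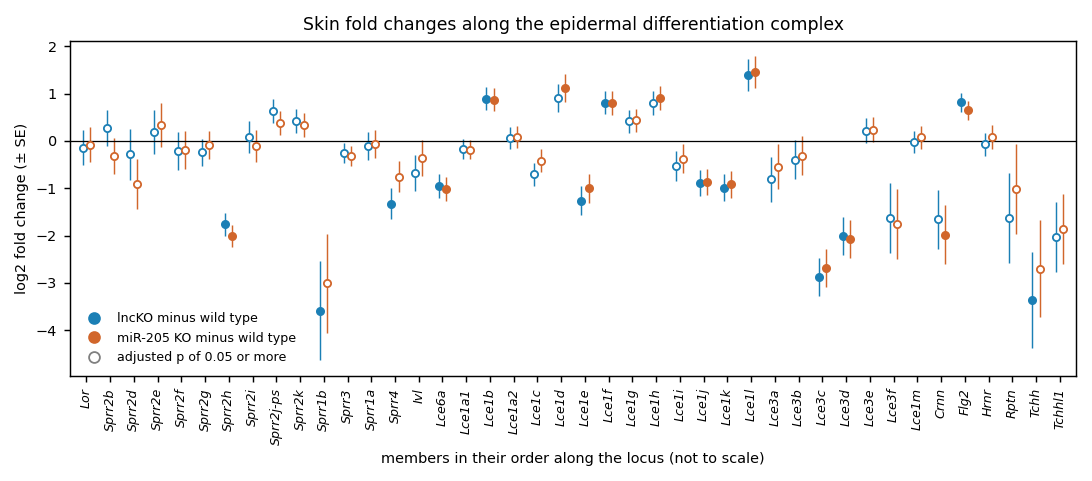
Log2 fold change (y axis, bars are SE) against wild-type skin for the 42 members of chromosome 3, in their RefSeq order along the epidermal differentiation complex (x axis, not to scale); filled points passed an adjusted p of 0.05. Genes that rose (Lce1b, Lce1f, Lce1l) and fell (Lce1e, Lce1j, Lce1k) are intermixed within the Lce1 group, and Lce3c and Lce3d follow as neighbours that both fell.

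Along the locus, 42 of the 48 members lie on chromosome 3 and 6 elsewhere, and no test of their order was run. In the RefSeq order of the members Lce1d, Lce1e, Lce1f, Lce1g and Lce1h follow each other: Lce1e fell in both knockouts, Lce1f rose in both, and Lce1d and Lce1h passed upward in miR-205 KO. Lce1j and Lce1k, which fell, stand directly before Lce1l, which rose. The members on other chromosomes are Cdsn (17), Tgm1 (14), Casp14 (10), Asprv1 (6), and Tgm3 and Tgm5 (2), so falls were not limited to the complex.

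Among the Sprr genes, which encode short proline-rich bridges of the envelope, most members passed in neither comparison. Of 9 Sprr2 genes 1 passed, Sprr2h, which read 39, 28 and 23 in wild type, 9, 8 and 9 in lncKO and 6, 8 and 8 in miR-205 KO. The groups did not overlap, but knockout arrays were at background and wild-type arrays little above it. Sprr2h fell by 1.76 ± 0.24 (adjusted p = 6.95e-04) and by 2.01 ± 0.24 (3.31e-04), and with a floor at 16 by 0.87 in both, so the size of its fall is set by the background. The other 8 Sprr2 probe sets read 6 to 117 in skin, with log2 fold changes from -0.91 (Sprr2d in miR-205 KO, adjusted p = 0.26) to 0.63 (Sprr2j-ps in lncKO, 0.106).

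Sprr4 read 9711, 6194 and 4655 in wild type, 4102, 2403 and 1790 in lncKO and 3349, 4774 and 3670 in miR-205 KO. The lncKO arrays lay below wild type, while miR-205 KO 8 overlapped with wild type 3. Sprr4 fell by 1.33 ± 0.33 in lncKO (adjusted p = 0.0177), which failed when wild type 1 or lncKO 5 or 6 was left out and with the floor (up to 0.0816), and its change in miR-205 KO was -0.75 ± 0.33 (0.137). Sprr1b, a gene of irritated and wounded epidermis, read 2736, 84 and 54 in wild type, 17, 12 and 35 in lncKO and 31, 22 and 35 in miR-205 KO. Knockout arrays lay below wild type, but its wild-type mean is carried by wild type 1. It fell by 3.59 ± 1.05 in lncKO (0.0356), which failed when any one lncKO array was left out and under the fit of only the groups compared, the variance trend or the floor (up to 0.194), and its change in miR-205 KO was -3.01 ± 1.05 (0.0662). Without wild type 1 and 2 together the lncKO value for Sprr1b was -1.49 (adjusted p = 0.111), and over the 13 settings its smallest fall was -1.81. Sprr1a read 558 to 1176 over the skin arrays, with log2 fold changes of -0.11 ± 0.30 and -0.07 ± 0.30, and did not pass.

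Involucrin and loricrin, the classic envelope precursors, did not pass in either knockout. Ivl read 14101, 8214 and 5022 in wild type, 8428, 4357 and 3873 in lncKO and 8571, 6207 and 5052 in miR-205 KO, and the groups overlapped. Its log2 fold change was -0.68 ± 0.38 in lncKO (adjusted p = 0.245) and -0.37 ± 0.38 in miR-205 KO (0.54). Lor read 419, 1331 and 838 in wild type, 600, 737 and 786 in lncKO and 537, 735 and 1004 in miR-205 KO. All knockout values of Lor lay within the wild-type range, and the 95% interval of its change ran from -0.93 to 0.64 in lncKO and from -0.87 to 0.71 in miR-205 KO.

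Among the 6 S100-fused members, Flg2 rose in both knockouts, Tchh fell in lncKO and Crnn fell in miR-205 KO. Flg2 read 190927, 206454 and 208289 in wild type, 401316, 324904 and 341668 in lncKO and 293823, 332187 and 321161 in miR-205 KO, with no overlap. The rise was 0.81 ± 0.20 in lncKO (1.76-fold, adjusted p = 0.0163) and 0.64 ± 0.20 in miR-205 KO (1.56-fold, 0.0421). In lncKO it was lost without lncKO 4 and with quantile normalization (0.107), and in miR-205 KO it was lost without each single array of the pair of groups in turn and with quantile normalization (0.39). Hrnr, next to Flg2 in the RefSeq order of the members, read 338008, 227593 and 295244 in wild type. It read 347984, 202807 and 276770 in lncKO and 269475, 316133 and 316770 in miR-205 KO. Its groups overlapped, with changes of -0.07 ± 0.25 and 0.08 ± 0.25.

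Tchh, which stiffens the inner root sheath, read 3050, 2692 and 85 in wild type, 65, 179 and 55 in lncKO and 99, 112 and 229 in miR-205 KO. Wild type 1 and 2 were bright, and wild type 3 read like the knockouts. Tchh fell by 3.36 ± 1.02 in lncKO (adjusted p = 0.0418), which failed under 8 of the 13 settings, including when wild type 1 or 2 or any one lncKO array was left out (up to 0.198). Without wild type 1 and 2 together its log2 fold change was 0.02 (0.991), so the fall rests on those 2 arrays, and in miR-205 KO the change was -2.70 ± 1.02 (0.0885). Its relative Tchhl1 read 774, 532 and 51 in wild type and 50 to 105 in the knockouts, and did not pass (0.0814 and 0.105). Crnn, a gene of stratified mucosa, read 151, 142 and 18 in wild type and 13 to 31 in the knockouts. Crnn fell by 1.98 ± 0.63 in miR-205 KO (adjusted p = 0.0465), which failed under 8 of 12 settings, including when wild type 1 or 2 or any one array of the knockout was left out (up to 0.207), and its change was 0.04 (0.973) without wild type 1 and 2 together. In lncKO its change was -1.65 ± 0.63 (0.0916).

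Markers of hair moved with those wild-type arrays. Over the 15 measured genes of the hair shaft and root sheath list, the mean log2 intensity per array ran from 4.08 to 6.48 in wild type, from 4.14 to 4.56 in lncKO and from 4.28 to 4.31 in miR-205 KO. Krt71, a keratin of the inner root sheath, read 1782, 2968 and 37 in wild type, 38, 209 and 28 in lncKO and 60, 45 and 73 in miR-205 KO. Thus Tchh, Tchhl1, Crnn and Krt71 were bright on wild type 1 and 2 and dim on wild type 3. The part of hair in the falls of Tchh and Crnn was not tested.

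Wild type 1 stood apart in a further set of members. On that array 11 of 48 members were at least 2 times as bright as on both other wild-type arrays, where 1.41% of all named probe sets were: Casp14, Lce3a, Lce3b, Lce3c, Lce3d, Lce3f, Rptn, Sprr1b, Sprr2d, Sprr2e and Sprr2f. The other 8 skin arrays had 0 to 3 such members against the remaining arrays of their group. Rptn, an S100-fused envelope gene, read 15568 on wild type 1, 703 and 614 on the other wild-type arrays, 1004, 353 and 651 in lncKO and 1748, 991 and 472 in miR-205 KO, and did not pass (adjusted p = 0.264 and 0.496). Krt16, a keratin of stressed epidermis, read 2669, 52 and 58 in wild type and 110 to 216 in the knockouts, so it was brightest on the same array. Krt17, the other measured stress keratin, read 1432, 1513 and 924 in wild type and 795 to 1803 in the knockouts, so it was not brightest on that array. S100a8 and S100a9, also raised in stressed epidermis, read 219 and 869 there, 13 to 46 and 67 to 169 on the other wild-type arrays, and 82 to 227 and 164 to 655 in the knockouts. Gh, the growth hormone gene, read 2501 on wild type 1, 29 and 76 on the other wild-type arrays and 7 to 15 in the knockouts. Over the 11 pituitary hormone-cell markers the mean log2 intensity was 4.04 to 5.24 in wild-type skin, 3.69 to 3.8 in lncKO and 3.60 to 3.76 in miR-205 KO. Apart from Gh, no marker of that list read above 72 on a skin array. Tshb went the other way, at 16 to 24 in wild type, 37 to 59 in lncKO and 40 to 63 in miR-205 KO. Pomc read 16 to 20, 20 to 31 and 15 to 21 in that order. The group means of the remaining markers were higher in wild type than in either knockout. The part of these differences in the results was not tested beyond the fits without wild type 1.

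**Figure D4:**
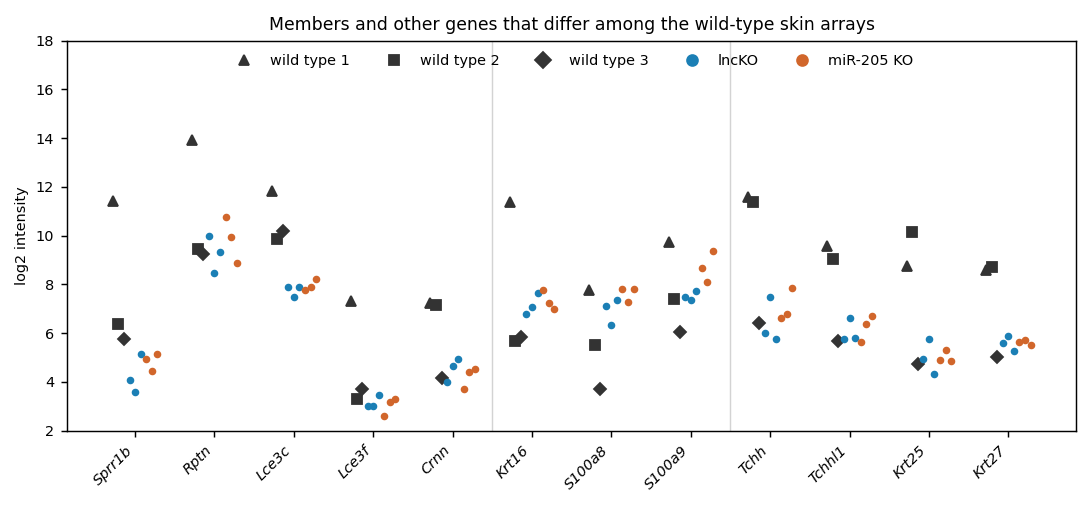
Log2 intensity on the 9 skin arrays of members and other genes that differ among wild-type arrays, each wild-type array with its own symbol. Sprr1b, Rptn and Lce3f (left) and Krt16 (middle) are bright on wild type 1, and Tchh, Tchhl1, Krt25 and Krt27 (right), together with Crnn (left), are bright on wild type 1 and 2.

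The 2 knockouts were then compared with each other in skin. Wild-type means do not enter these differences, but the wild-type arrays share in the estimate of the spread, since all 9 skin arrays were fitted together. By limma 0 of 48 members passed, as did 0 of all probe sets (0%), and 0 members and 637 of all probe sets had an unadjusted p under 0.05. With only the knockout arrays in the fit 0 members and 0 of all passed, and 742 of all had an unadjusted p under 0.05. Log2 differences ran from -0.66 for Tchh to 0.63 for Sprr2d. For 34 of 48 members the 95% interval lay within -1 and 1. Cdsn differed by 0.03 (95% interval -0.55 to 0.61) and Tgm1 by -0.26 (-0.74 to 0.22). Sprr4, with -0.58 (-1.29 to 0.14), had the lowest unadjusted p, 0.104. The intervals of Sprr1b (-2.84 to 1.68) and Tchh (-2.87 to 1.55) were wide, and the wild-type arrays add to their width. The SD of Sprr1b was 3.10 in wild type, 0.79 in lncKO and 0.35 in miR-205 KO on the log2 scale, and that of Tchh was 2.93, 0.92 and 0.65.

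Sprr1b, Sprr4 and Tchh passed in lncKO alone and Crnn, Lce1d and Lce1h in miR-205 KO alone, but the difference between the knockouts did not pass for any of these 6, as given above.

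The knockout difference itself was tested between skin and pituitary as an interaction over all 18 arrays. For lncKO 7 of 48 members passed, 1 higher in skin and 6 lower, beside 9.25% of all probe sets (3.37% higher and 5.88% lower). For miR-205 KO 10 passed, 4 higher and 6 lower, beside 9.95% of all (3.69% and 6.26%). Cdsn (-2.02 ± 0.45 in lncKO and -1.93 ± 0.45 in miR-205 KO), Lce3c (-3.07 ± 0.52 and -2.59 ± 0.52) and Lce3d (-2.0 ± 0.49 and -2.27 ± 0.49) passed in both. Tgm1 passed for lncKO (-1.48 ± 0.36, adjusted p = 0.0136). These members read near background in pituitary. Leaving out wild type 3 raised the member counts to 13 and 16. The counts over all 19572 probe sets then went from 1811 to 1608 for lncKO and from 1948 to 1730 for miR-205 KO.

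Other genes of envelope formation were read from lists of related function. Of 10 desmosome genes, which hold keratinocytes together, 2 rose and 2 fell in each knockout, beside 6.21% higher and 9.17% lower of all probe sets in lncKO and 6.79% and 10.0% in miR-205 KO. Dsg1a and Dsg1c, desmosomal cadherins, rose by 1.17 ± 0.23 and 1.19 ± 0.24 in lncKO (adjusted p = 0.00551 and 0.00657) and by 1.13 ± 0.23 and 1.19 ± 0.24 in miR-205 KO. The plaque genes Jup and Pkp3 fell by 1.29 ± 0.27 and 1.11 ± 0.24 in lncKO and by 1.22 ± 0.27 and 1.26 ± 0.24 in miR-205 KO. In pituitary lncKO, Dsp, the desmosomal linker, rose by 1.45 ± 0.23 (0.0155).

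Envoplakin (Evpl), an early scaffold protein, rose by 1.43 ± 0.25 in lncKO and by 1.54 ± 0.25 in miR-205 KO, the one riser of 12 further scaffold genes in each. Tgm2, a broadly expressed transglutaminase of that list, fell by 0.87 ± 0.26 in miR-205 KO (adjusted p = 0.035). Of 18 genes for the lipid envelope and barrier, 1 rose and 6 fell in lncKO, and 1 rose and 4 fell in miR-205 KO (all probe sets: 6.21% higher and 9.17% lower, and 6.79% and 10.0%). Cers3, the ceramide synthase of the epidermal barrier, fell by 1.87 ± 0.24 in lncKO (5.52e-04) and fell by 2.47 ± 0.24 in miR-205 KO (1.14e-04). Alox12b, a lipoxygenase that prepares ceramides for attachment to the envelope, fell by 1.22 ± 0.30 and 1.07 ± 0.30, whereas Elovl4, which makes very long fatty acids, rose by 0.96 ± 0.22 and 0.86 ± 0.22. The median of the 18 lipid envelope and barrier genes was -0.42 in lncKO and -0.63 in miR-205 KO, beside -0.07 over all probe sets.

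Of 16 genes for epidermal proteases and their inhibitors, 1 rose and 7 fell in each knockout, beside 6.21% higher and 9.17% lower of all probe sets in lncKO and 6.79% and 10.0% in miR-205 KO. Klk7, a kallikrein that cuts corneodesmosin, fell by 1.44 ± 0.21 in lncKO (adjusted p = 9.60e-04) and by 1.56 ± 0.21 in miR-205 KO (6.01e-04). The kallikrein Klk11 fell by 1.68 ± 0.24 and 1.63 ± 0.24, and Klk8 by 1.99 ± 0.30 and 1.41 ± 0.30. Spink5, an inhibitor of epidermal kallikreins, rose by 1.42 ± 0.24 (0.00267) and 1.62 ± 0.24 (0.00126), while Serpinb12, a gene of the serpin inhibitor family, had log2 fold changes of -1.42 ± 0.29 and -1.93 ± 0.29 and was among those that fell. Transcripts of corneodesmosin and of the kallikrein Klk7 were both lower in knockout skin, and that of the inhibitor Spink5 was higher. Not all kallikreins of the list fell. Klk6 read 4382 to 10651 in wild type, 4468 to 13960 in lncKO and 5784 to 8433 in miR-205 KO. Klk10 read 385 to 468, 394 to 561 and 553 to 596 in the same order of groups. A link between these changes was not tested.

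Among 27 regulators of terminal differentiation, 1 rose and 6 fell in lncKO, and 0 rose and 6 fell in miR-205 KO, beside 15.4% and 16.8% of all probe sets that passed in either direction. Cebpb and Cebpa, transcription factor genes of differentiating keratinocytes, fell by 2.17 ± 0.26 and 2.02 ± 0.27 in lncKO (adjusted p = 3.68e-04 and 6.95e-04) and changed by -1.95 ± 0.26 and -1.72 ± 0.27 in miR-205 KO. The log2 fold changes of Grhl2, an epithelial transcription factor gene, were -1.75 ± 0.26 and -1.77 ± 0.26, and those of Fosl2, an AP-1 subunit gene, were -1.83 ± 0.29 and -1.71 ± 0.29. Of 13 S100 genes beside the envelope genes, 1 rose and 1 fell in lncKO, and 1 rose and 2 fell in miR-205 KO, beside those shares of 15.4% and 16.8%. S100a13 rose by 1.78 ± 0.33 and 1.67 ± 0.33.

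Of 6 suprabasal keratins, which mark the layers above the basal one, 2 rose and 0 fell in each knockout (list medians 0.07 and 0.49), beside 6.21% and 6.79% of all probe sets higher, with Krt10 up by 0.94 ± 0.20 (adjusted p = 0.00832) and 0.97 ± 0.20 (0.0067) and Krt77 by 2.71 ± 0.55 and 2.90 ± 0.55. Of 7 basal keratinocyte markers, 0 rose and 1 fell in each, Itgb4, an integrin of the basement membrane, by 1.08 ± 0.28 and 0.88 ± 0.28. Of 2 measured stress keratins 0 passed.

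**Figure D5:**
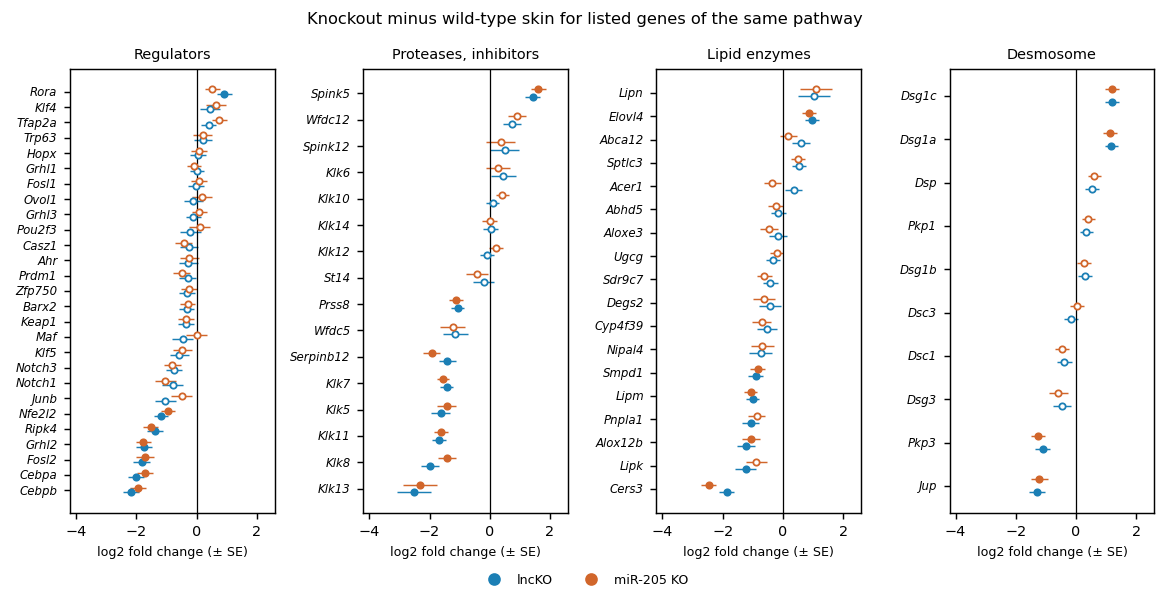
Log2 fold change against wild-type skin (x axis, bars are SE) of the measured genes of 4 lists, in lncKO and miR-205 KO; filled points passed an adjusted p of 0.05. Cebpb, Cebpa, Grhl2 and Fosl2 lie at the low end of the regulators, 7 proteases and inhibitors fell while Spink5 rose, Cers3 is the lowest lipid gene, and the desmosome genes split into 2 risers and 2 fallers.

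Markers of other tissues of the ear also differed between the groups, where 6.21% of all probe sets rose in lncKO and 6.79% in miR-205 KO. Of 8 cartilage markers 5 rose in lncKO and 4 in miR-205 KO with 0 falling, and their mean log2 intensity per array was 7.87 to 8.43 in wild type, 9.16 to 9.78 in lncKO and 9.07 to 9.40 in miR-205 KO. Of 6 adipocyte markers 4 rose in each, with means of 10.36 to 12.05 in wild type, 12.27 to 13.05 in lncKO and 12.20 to 13.24 in miR-205 KO. Of 6 fibroblast markers 2 rose in each (means 15.52 to 15.87, 16.11 to 16.54 and 15.80 to 16.32), and of 7 sebaceous gland markers 1 rose in each (10.78 to 11.57, 11.77 to 12.23 and 11.62 to 11.92). Of 9 muscle markers 1 rose in lncKO and 2 in miR-205 KO, of 5 melanocyte markers 0 and 1, and of 5 macrophage and Langerhans cell markers 0 and 0. No marker is listed at 0. The part of these tissues in the falls of the envelope genes was not tested; the basal keratinocyte means were 12.75 to 13.06 in wild type, 12.57 to 12.85 in lncKO and 12.63 to 12.70 in miR-205 KO.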

How the data were processed

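RNA of 18 samples was read on Clariom S arrays. The authors deposited linear intensities from 4 to 1243875, a single value for each probe set on each array; how background was corrected, probes summarised and arrays normalized is not given in the sources used here. Genes were named for 19572 of 22206 probe sets from the platform's annotation (0 with several symbols, 2634 with none) and all were matched by gene ID to a RefSeq table of GRCm38.p6. Intensities were log2 transformed without a pseudocount or further normalization. Comparisons used limma 3.58.1 (lmFit, eBayes) in R 4.3.3, two-sided, on the 9 arrays of a tissue together (6 residual degrees of freedom), or on all 18 for comparisons between tissues, with Benjamini-Hochberg adjustment over the named probe sets at 0.05. Precision is limited by the number of arrays. The script was tested on simulated data.

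Members and gene lists were chosen with earlier results of these data known. Every member could be named; values in every sample are given for up to 12 members past the threshold with the smallest p over both skin comparisons, for Flg2, Hrnr, Lor, Ivl, Tgm1, Tgm3, Tgm5, Casp14, Cdsn, Asprv1 and Tchh in any case, for Sprr1b, Rptn, Tchhl1 and Crnn (and the non-members Krt16, Krt71, S100a8, S100a9 and Gh) after their values were seen, and in pituitary for members with all 3 arrays of a group above 64. From each list up to 4 genes with the smallest p were named. Krt17, Tshb, Pomc, Klk6 and Klk10 were added after their values were seen. No replicate number recurs between groups, so nothing was paired, and at most 5.49% of values were identical between arrays. The alternatives were quantile normalization, median centring, a floor at 16, a filter on mean intensity above 32, a variance trend, only the groups compared, adjustment over all probe sets, and leaving out each array. Some genes of the lists, and Flg, were not analysed here.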

Additional observations from a re-analysis of the deposited data

Results flagged for a closer look

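Knockout effects that differed between skin and pituitary by a test of the interaction are given as log2 differences, skin minus pituitary, with limma's SE and adjusted p. For lncKO 7 members passed. They were Lce3c (-3.07 ± 0.52, 0.00111), Cdsn (-2.02 ± 0.45, 0.00833), Lce3d (-2.0 ± 0.49, 0.0139), Sprr2h (-1.58 ± 0.32, 0.00482), Tgm1 (-1.48 ± 0.36, 0.0136) and Lce6a (-1.09 ± 0.31, 0.0344), all lower, and Lce1l (1.41 ± 0.42, 0.0406), higher.

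For miR-205 KO 10 members passed. Lower in skin were Lce3c (-2.59 ± 0.52, 0.00374), Lce3d (-2.27 ± 0.49, 0.00639), Sprr2h (-2.22 ± 0.32, 4.23e-04), Cdsn (-1.93 ± 0.45, 0.0108), Casp14 (-1.72 ± 0.43, 0.0153) and Lce6a (-1.18 ± 0.31, 0.0214). Higher in skin were Lce1b (1.53 ± 0.31, 0.00449), Lce1d (1.36 ± 0.37, 0.0251), Lce1l (1.33 ± 0.42, 0.0493) and Lce1g (1.08 ± 0.33, 0.0405). Lce1g passed here although it did not pass within skin (0.43 ± 0.25); its pituitary arrays read 18 to 26 in wild type and 11 to 18 in miR-205 KO. All of these members read 56 or less in pituitary except Tgm1, whose highest value was 67.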

How the results depend on the processing

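Of the 17 calls in each skin comparison, 4 stood under every setting tried for them in advance in lncKO (Cdsn, Lce3c, Sprr2h and Tgm1) and 5 in miR-205 KO (those and Lce3d). Sprr2h did not reach the filter on mean intensity above 32, so it was not tested under that setting. The lncKO count of 17 was 6 with the floor at 16 (1937 of all 19572 probe sets, beside 3009 in the main fit). Leaving out single arrays gave 8 to 19 members, beside 1886 to 2514 of all. Of all probe sets 3293 passed in the main miR-205 KO fit. The miR-205 KO count of 17 was 11 with quantile normalization (3272 of all) and 8 with the floor (2173). With only the groups compared it was 11 (2911). Leaving out single arrays gave 8 to 16 members, beside 1668 to 2775 of all. The comparison of the knockouts and both pituitary comparisons gave 0 under every alternative, and wild-type skin against pituitary 33 to 42, where 33 came from 34 members tested with the filter. The interaction counts ran from 5 to 13 in lncKO and from 7 to 16 in miR-205 KO. They were highest without wild type 3, where 1608 and 1730 of all probe sets passed. The cause of these shifts was not tested.

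Signs turned for several values that did not pass and, without wild type 1 and 2, for the calls of Tchh in lncKO and Crnn in miR-205 KO. In lncKO, Hrnr was 0.009 with centring and -0.257 to 0.132 with single arrays left out; Lor was 0.012 with quantile normalization and -0.587 to 0.247 with single arrays left out; and without wild type 1 and 2 Ivl was 0.056 and Tchh 0.02. In miR-205 KO, Hrnr was -0.334 with quantile normalization, and Lor was 0.069 with it and 0.008 with centring. With single arrays left out Hrnr ran from -0.075 to 0.211, Ivl from -0.738 to 0.007, Lor from -0.524 to 0.31 and Tgm5 from -0.051 to 0.546. Without wild type 1 and 2 Ivl was 0.362, Tchh 0.683 and Crnn 0.036. No paired analysis was possible because no replicate number recurs between groups. Signal over background limits the Sprr2 genes, Lce3a, Lce3b, Lce3e and Lce3f in skin and nearly all members in pituitary.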
